A study of Caenorhabditis elegans with 32 samples.

Results

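The C-type lectin genes of *Caenorhabditis elegans* were followed across 4 genotypes and 2 media. Members were all protein-coding genes of the deposited count table whose symbol begins with *clec*-, except 1 that is not analysed here, which gave 252 genes among 46589 in the table (20528 of them protein-coding). The domain names in the table fitted the label in part: 103 members carried the Pfam name Lectin_C, 24 were listed under CUB, 14 under VWA and 111 under no domain, and 14 of the 252 are pseudogenes in the RefSeq annotation. A count was found in at least 1 library for 237 members and in all 32 libraries for 109, while 15 had none.

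C-type lectins are proteins built around a fold that can bind sugars, often with the help of calcium, and many nematode members are secreted. In *C. elegans* the family is large, many of its genes lie side by side, and subsets of it are induced in the intestine when worms meet pathogenic bacteria, which has made them common readouts of the p38 kinase PMK-1 and other defence pathways. HLH-30, the worm homologue of the mammalian transcription factor TFEB, controls autophagy and lysosomal genes and takes part in the response to infection. PGPH-2 is a phosphatase that removes the phosphate of glycerol-3-phosphate, a product of glucose metabolism.

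RNA was sequenced from whole animals of 8 groups with 4 libraries each, all fed *E. coli* OP50 at the L4 to young adult stage. The genotypes were *pgph-2* oe (a transgene under the promoter region of the gene itself, integrated by UV, with a pharyngeal mCherry marker), the combined strain *pgph-2* oe; *hlh-30*(tm1978), *hlh-30*(tm1978) (a deletion allele) and N2 Bristol wild type (WT). Each was grown on plates with 2% glucose and on standard NGM plates. Each genotype was 1 strain, so strain and genotype cannot be told apart, and the 4 libraries of a group are described by the study as biological replicates, without a statement of how the cultures were kept apart.

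Library totals ran from 16750042 to 29794842 counts, and between 146 and 188 members were detected per library. The *pgph-2* gene itself was at 60.8 to 86.6 CPM (counts scaled to a common library size) in *pgph-2* oe against 30.5 to 44.4 CPM in WT on NGM, and at 105.5 to 142.7 CPM against 63.5 to 73.7 CPM on glucose. In the combined strain *pgph-2* was at 106.7 to 137.3 CPM on NGM and at 73.74 to 91.27 CPM on glucose, above *pgph-2* oe on NGM and below it on glucose. Comparisons of these strains and the interactions thus also differ in total *pgph-2* RNA. The gene total does not separate the transgene from the gene itself. In *hlh-30* without the transgene *pgph-2* was at 28.14 to 43.89 CPM on glucose, below WT, and at 24.53 to 61.5 CPM on NGM, overlapping WT. Transcripts of *hlh-30* were still counted in the mutant (50.9 to 61.1 CPM on NGM, against 88.1 to 107 CPM in WT), so the deletion could not be read from the gene total. Germline RNA differed between groups: the summed level of a 51-gene sperm list ran from 2710 to 4425 CPM in *pgph-2* oe on NGM and from 1353 to 2347 CPM in WT on NGM, but from 264.5 to 686 CPM in *pgph-2* oe on glucose and from 97.2 to 788 CPM in *hlh-30* on glucose, against 1776 to 3644 CPM in WT on glucose. Up to 2 of the 51 genes were at 0 throughout a group. Oocyte and cuticle genes moved too: of 16 oocyte genes 16 were lower in the combined strain than in *pgph-2* oe on NGM, 13 in *hlh-30* than in WT on glucose and 16 on glucose than on NGM in *pgph-2* oe, and of 5 hypodermal genes 4, 3 and 3 were lower in the same comparisons. In *pgph-2* oe over WT on NGM, 11 of the 16 oocyte genes and 12 of 48 tested sperm genes were higher. In whole animals fewer cells of a type and less RNA per cell cannot be told apart. A summed list of 8 male genes was at 4.24 to 7.33 CPM in WT libraries on either medium and at 1.64 to 4.86 CPM in the other 3 genotypes, where 1 to 3 of the 8 were at 0 throughout a group.

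The family was dominated by a few genes. By mean level over all libraries, 5 members reached 100 CPM and 59 reached 5 CPM, while 145 stayed under 1 CPM. Per length, the highest level in WT on NGM was that of *clec-63* with 1289 ± 74.8 FPKM (SD, n = 4), followed by *clec-50* (318.5 ± 19.3 FPKM), *clec-150* (158 ± 7.31 FPKM), *clec-47* (118 ± 19.6 FPKM) and *clec-41* (77.2 ± 10.9 FPKM), and none of these neighbours overlapped within 1 SD. *clec-63* alone made up 39.57% to 49.97% of all lectin CPM in a library. It was at 3603, 2065, 2077 and 2453 CPM in *pgph-2* oe on NGM, against 1577, 1700, 1684 and 1817 CPM in WT on NGM. Every *pgph-2* oe library lay above every WT library, but the difference did not pass (log2 fold change 0.59, SE 0.20, edgeR adjusted p = 0.101). Replicate 1 of *pgph-2* oe on NGM stood apart with a summed lectin level of 7597 CPM, against a median of 4345 CPM over all libraries and 5749 CPM in the next highest library.

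Differences were tested with edgeR's quasi-likelihood test on all genes, and a gene was called when its Benjamini-Hochberg adjusted p was at most 0.05 and its log2 fold change at least 1 in size. Of the 252 members, 160 passed the filter on low counts in at least 1 fit and 92 in none; 156 were tested in at least 1 of the 12 pairwise comparisons, of which 94 were called at least once and 62 never. Comparisons of different strains against WT on one medium share the WT libraries, and comparisons of genotypes and of media share libraries too, so calls in them are not independent. For each factor, the 4 comparisons that share no library (2 genetic backgrounds by 2 media, or 4 genotypes for glucose) were set side by side, and a member is said to follow the factor when it was called in the same direction in at least 3 of them and in the opposite direction in none. These classes were built from the calls and describe them. They held 20 members, and 34 together with those that followed a germline score. The share of all genes that meets the same rule was not counted, so the size of these classes cannot be set against all genes.

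**Figure D1:**
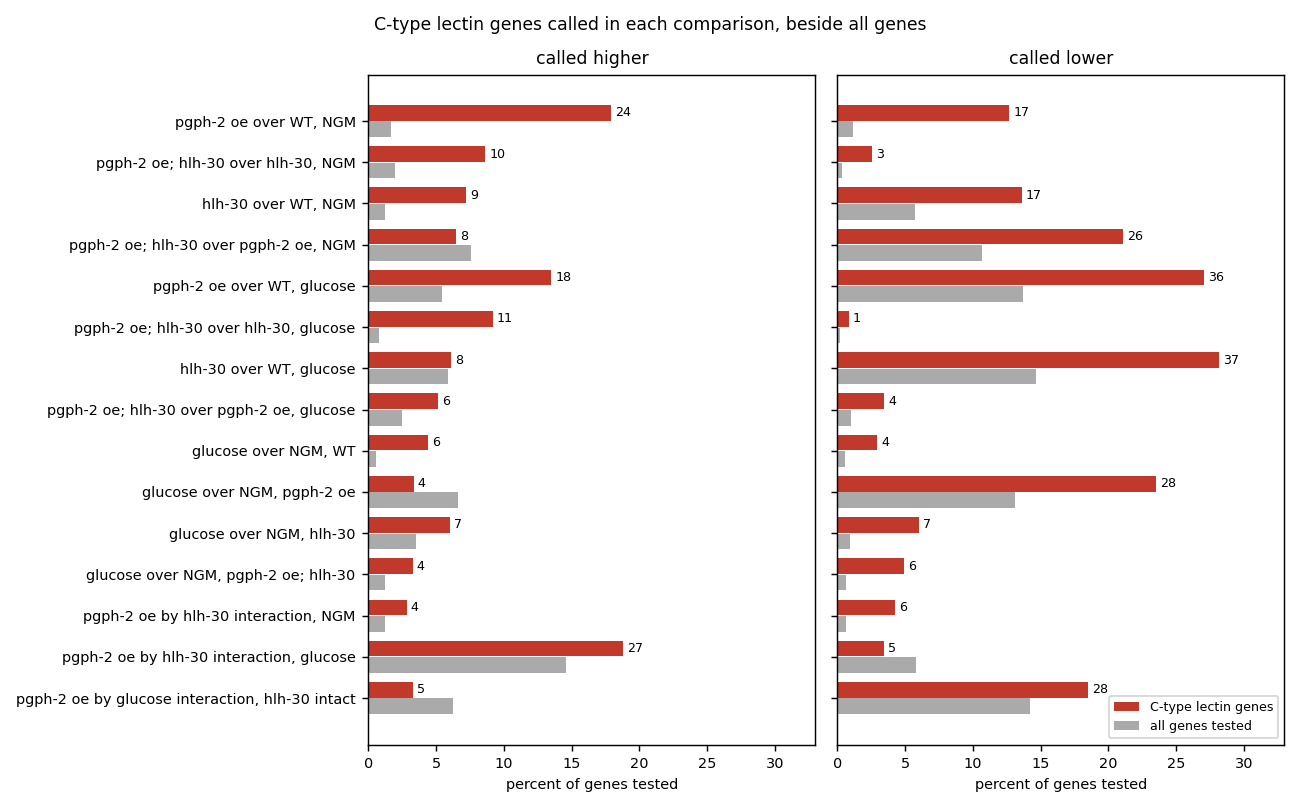
Percent of tested genes called higher (left) and lower (right) in each of the 12 pairwise comparisons and 3 interactions, with the C-type lectin genes in red (number of members called beside each bar) and all tested genes in grey. The red bar is longer than the grey one on the higher side for *pgph-2* oe over WT on NGM (24 members) and on the lower side for both strains over WT on glucose (36 and 37 members), among others. Of those 36 and 37, 15 and 16 belong to a set high in WT alone.

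With the *pgph-2* transgene 8 lectin genes were higher in all 4 comparisons, and many others moved in 1 or 2 of them. On NGM, 24 of 134 tested members (17.9%) were higher in *pgph-2* oe than in WT, beside 1.7% of all genes, and 17 (12.7%) were lower, beside 1.17%. Of these 17, 16 belonged to a set high in WT alone, described further on, which passed the filter on low counts through WT. So did 15 of the 36 lower calls over WT on glucose given below. In the *hlh-30* background on NGM, 10 of 116 members were higher in the combined strain than in *hlh-30*, beside 1.95% of all genes, and 3 were lower, beside 0.353%. On glucose, 18 of 133 members were higher in *pgph-2* oe than in WT, beside 5.44%, and 36 were lower, beside 13.7%, and in the *hlh-30* background 11 of 120 were higher in the combined strain, beside 0.787%, and 1 was lower, beside 0.19%. With the sperm score, a measure of germline RNA described further on, in a fit of all 32 libraries, the calls of *pgph-2* oe over WT on glucose were 11 higher and 15 lower. The median log2 fold change of the tested members was 0.36 (all genes 0.00), 0.16 (0.01), 0.03 (0.02) and 0.32 (-0.003) in these 4 comparisons. Of 71 members called in at least 1 of the 4, 8 were higher in all 4, 1 was lower in 3, and 5 were called in both directions. The same counts over all genes were not made.

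The 8 members higher in all 4 comparisons included 4 genes named in work on infected worms. These 4 come from a list of 12, described further on, that was set with earlier results of these data known. *clec-61* (ZK666.7, chromosome II, 10488728 to 10490514 on WBcel235) and *clec-60* (ZK666.6, II, 10480102 to 10481846) are neighbours that are induced when worms are infected with *Staphylococcus aureus*. *clec-61* was at 32.9, 23.4, 29.3 and 30.5 CPM in *pgph-2* oe on NGM, against 1.21, 2.05, 1.24 and 0.798 CPM in WT on NGM. In the *hlh-30* background on NGM it was at 8.55, 5.73, 7.51 and 8.27 CPM in the combined strain, against 0.650, 0, 1.37 and 0.424 CPM in *hlh-30*. No library with the transgene overlapped its control, and the log2 fold changes were 4.43 (SE 0.24, edgeR adjusted p = 3.09e-06) and 3.57 (SE 0.53, adjusted p = 0.00376). On glucose *clec-61* was at 2.20 to 4.22 CPM in *pgph-2* oe against 0.260 to 0.734 CPM in WT (log2 fold change 2.39, SE 0.35), and at 6.84 to 12.2 CPM in the combined strain against 0.234 to 0.922 CPM in *hlh-30* (4.14, SE 0.42). In *pgph-2* oe *clec-61* was lower on glucose than on NGM (log2 fold change -3.27, SE 0.20), and on glucose it was higher in the combined strain than in *pgph-2* oe (1.58, SE 0.24).

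*clec-60* was at 11.41, 10.45, 12.76 and 13.01 CPM in *pgph-2* oe on NGM, against 1.82, 0.712, 1.40 and 1.48 CPM in WT on NGM (log2 fold change 3.13, SE 0.25, edgeR adjusted p = 4.04e-05). In the combined strain on NGM it was at 1.83, 1.75, 2.00 and 2.56 CPM, against 0.350, 0.461, 0.527 and 0.667 CPM in *hlh-30* (log2 fold change 2.00, SE 0.30). The transgene groups lay above their controls here and on glucose, where the log2 fold changes were 1.78 (SE 0.32) over WT and 2.01 (SE 0.32) in the *hlh-30* background. Loss of *hlh-30* went with less *clec-60* on NGM, both without the transgene (log2 fold change -1.43, SE 0.38, over WT) and with it (-2.55, SE 0.18, combined strain over *pgph-2* oe). The interaction of *pgph-2* oe and *hlh-30* on NGM did not pass for *clec-60* (-1.09, SE 0.38, edgeR adjusted p = 0.118).

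*clec-17* (E03H4.10, chromosome I) and *clec-42* (F16H6.1, chromosome V), a gene that like *clec-41* is linked to defence against *Bacillus thuringiensis*, moved by smaller and more even amounts. *clec-17* was at 18.5, 9.04, 8.39 and 11.5 CPM in *pgph-2* oe on NGM, against 2.91, 3.96, 4.03 and 5.41 CPM in WT on NGM. Its log2 fold changes were 1.54, 1.93, 2.12 and 1.89 (SE 0.14 to 0.28) over WT and in the *hlh-30* background on NGM, then over WT and in the *hlh-30* background on glucose. *clec-42* was at 10.3, 8.65, 8.92 and 9.90 CPM in *pgph-2* oe on NGM, against 3.12, 3.21, 2.47 and 4.96 CPM in WT on NGM. Its log2 fold changes in the same order were 1.46, 1.52, 1.57 and 1.06 (SE 0.18 to 0.25). For both genes the transgene libraries lay above their controls in all 4 comparisons.

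Among the other followers, *clec-7* (F10G2.3, chromosome V, a CUB-domain member) was at 25.2, 22.1, 26.1 and 26.1 CPM in *pgph-2* oe on NGM, against 4.45, 6.54, 6.06 and 8.15 CPM in WT on NGM (log2 fold change 1.98, SE 0.17, edgeR adjusted p = 7.18e-05). *clec-7* rose by 1.29, 1.81 and 1.42 on the log2 scale in the other 3 comparisons. *clec-82* (Y54G2A.8, chromosome IV) was at 14.2, 9.28, 12.2 and 13.8 CPM in *pgph-2* oe on NGM, against 1.42, 1.20, 0.837 and 2.22 CPM in WT on NGM (log2 fold change 3.14, SE 0.28). In the *hlh-30* background on NGM the difference in *clec-82* was smaller (1.48, SE 0.27), and this interaction passed (-1.63, SE 0.39, edgeR adjusted p = 0.0284). *clec-82* also followed the sperm score described further on.

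*clec-28* (F49A5.5) and *clec-33* (F49A5.7) lie next to each other on chromosome V, at 16865741 to 16867226 and 16867678 to 16869845, and both were low genes. *clec-28* was at 3.84, 2.96, 3.70 and 4.30 CPM in *pgph-2* oe on NGM, against 0.648, 0.312, 0.837 and 1.08 CPM in WT on NGM (log2 fold change 2.36, SE 0.35, edgeR adjusted p = 0.00209). *clec-33* was at 4.01, 2.62, 2.28 and 3.28 CPM in *pgph-2* oe on NGM (51 to 70 counts), against 0.162, 0.0445, 0.0798 and 0.114 CPM in WT on NGM (1 to 4 counts). Since the controls of *clec-33* held 0 to 4 counts a library in every comparison, no fold change is given for it. Neither gene overlapped between transgene libraries and controls in any of the 4 comparisons.

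One member went the other way. *clec-206* (F59A7.1, chromosome V, 2000418 to 2004329) was at 2.985, 3.40, 2.39 and 2.499 CPM in the combined strain on NGM, against 9.30, 8.70, 7.70 and 7.88 CPM in *hlh-30* on NGM (log2 fold change -1.58, SE 0.17, edgeR adjusted p = 0.000704). On glucose *clec-206* was at 8.59 to 15.5 CPM in *pgph-2* oe against 24.5 to 27.5 CPM in WT (-1.098, SE 0.18), and at 7.17 to 12.1 CPM in the combined strain against 16.9 to 25.2 CPM in *hlh-30* (-1.12, SE 0.18). On NGM the libraries of *pgph-2* oe (5.39 to 8.03 CPM) and WT (7.78 to 11.5 CPM) overlapped, and the difference in *clec-206* did not pass (-0.57, SE 0.18, adjusted p = 0.0861).

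The calls of the combined strain over *hlh-30* on glucose rested on single libraries more than those of the other 3 comparisons. There *clec-28* and *clec-82* lost their calls without any 1 of 6 of the 8 libraries, all but *hlh-30* replicate 3 and combined-strain replicate 2 (edgeR adjusted p = 0.0879 to 0.115 and 0.0649 to 0.101 where lost). *clec-42* lost its call without *hlh-30* replicate 2 or combined-strain replicate 1 or 4, *clec-7* and *clec-60* without combined-strain replicate 4, and *clec-206* without combined-strain replicate 2 (-0.99) or 4. *clec-206* also lost its call over WT on glucose without *pgph-2* oe replicate 3 (-0.95).

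**Figure D2:**
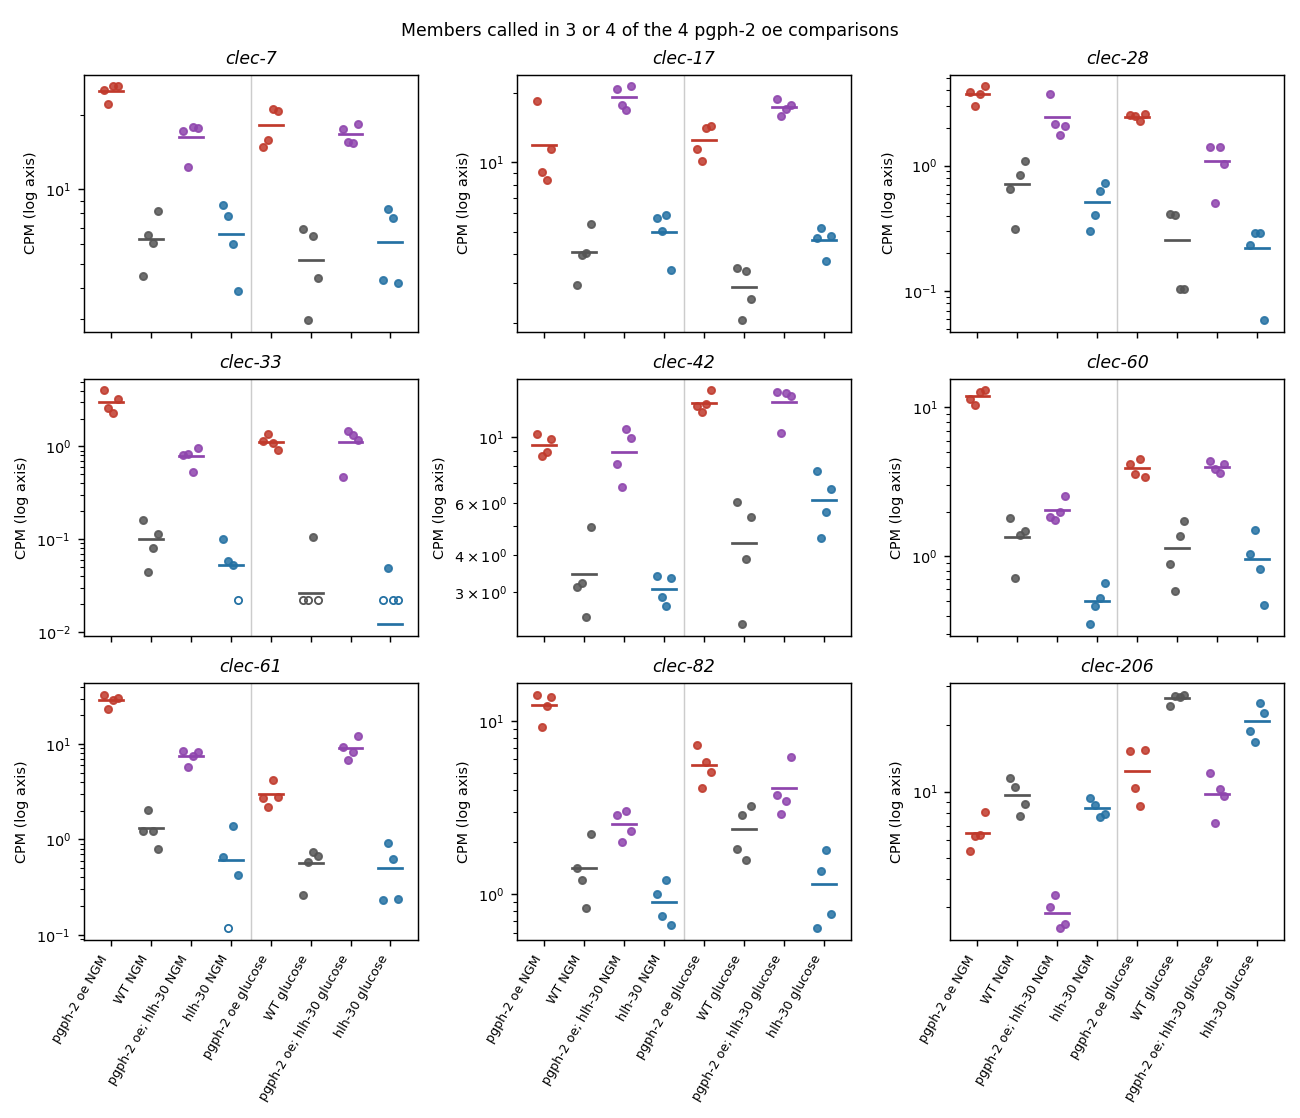
Level of the 9 members that followed *pgph-2* oe in every library, as CPM on a log axis, with each transgene group left of its control, NGM left of the grey line and glucose right of it (points are libraries, lines are group means, open circles are libraries at 0 counts). *clec-61* on NGM lies at 23.4 to 32.9 CPM in *pgph-2* oe and at 0.798 to 2.05 CPM in WT, and *clec-206* is the single member with lower transgene groups.

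Loss of *hlh-30* went with more lower than higher calls in 3 of the 4 comparisons, but over WT on NGM only through members high in WT alone. Just 1 member was lower in as many as 3 of the 4 comparisons. On NGM, 9 of 125 members were higher in *hlh-30* than in WT, beside 1.2% of all genes, and 17 were lower, beside 5.74%. Of these 17, 13 were of the set high in WT alone, described further on, and without that set 9 were higher and 4 lower. Between the combined strain and *pgph-2* oe on NGM, 8 were higher, beside 7.58%, and 26 were lower, beside 10.7%. On glucose, 8 of 131 were higher in *hlh-30* than in WT, beside 5.89%, and 37 (28.2%) were lower, beside 14.7%, while the combined strain over *pgph-2* oe gave 6 of 116 higher, beside 2.5%, and 4 lower, beside 0.998%. Of the 37, 16 were of the set high in WT alone. In a fit of all 32 libraries with the sperm score, 4 members were higher and 3 lower in *hlh-30* than in WT on glucose, and 5 were called in the combined strain over *pgph-2* oe on glucose, all 5 higher. The median log2 fold change of the members was -0.05 (all genes 0.00), -0.30 (0.01), -0.36 (0.02) and -0.03 (0.00). Of 67 members called at least once, 27 were lower in 2 of the 4 comparisons, and 1 member in all 4 comparisons and 4 in 3 were higher. Here too the same counts over all genes were not made.

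*clec-67* (F56D6.2, chromosome IV, 3922165 to 3925045), a gene whose level depends on the PMK-1 pathway, was the member higher in all 4. It was at 62.8, 58.8, 59.4 and 76.5 CPM in *hlh-30* on NGM, against 16.3, 21.3, 28.0 and 35.1 CPM in WT on NGM (log2 fold change 1.37, SE 0.21, edgeR adjusted p = 0.00368). With the transgene it was at 106.2, 121.6, 118.7 and 137.9 CPM in the combined strain on NGM, against 53.0, 33.9, 41.2 and 48.5 CPM in *pgph-2* oe (1.46, SE 0.14, adjusted p = 1.17e-05). Mutant and control libraries of *clec-67* did not overlap on either medium. On glucose the log2 fold changes were 1.68 (SE 0.14) over WT and 1.09 (SE 0.15) over *pgph-2* oe, and the call over *pgph-2* oe was lost without combined-strain replicate 2 (0.92), which had 98.2 CPM against 66.2 to 66.7 CPM in the other 3 libraries, or without *pgph-2* oe replicate 1 (0.98).

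*clec-4* (Y38E10A.5, chromosome II), another PMK-1 dependent lectin, was at 29.3, 31.6, 21.6 and 43.8 CPM in *hlh-30* on NGM, against 5.38, 8.86, 14.2 and 18.7 CPM in WT on NGM. Its log2 fold change was 1.44 (SE 0.35, edgeR adjusted p = 0.0266), and it was 1.12 (SE 0.19) for the combined strain over *pgph-2* oe on NGM and 1.06 (SE 0.18) for *hlh-30* over WT on glucose. The call of *clec-4* over WT on NGM was lost without WT replicate 2 or *hlh-30* replicate 1 or 2, that over *pgph-2* oe on NGM without combined-strain replicate 4, and that on glucose without WT replicate 2. In the fit with the sperm score *clec-4* was at 0.84 (edgeR adjusted p = 0.0623) over *pgph-2* oe on NGM and at 0.54 (adjusted p = 0.681) over WT on glucose, which ended both calls. On glucose the combined strain and *pgph-2* oe overlapped (16.8 to 31.9 and 14.5 to 24.2 CPM; 0.11, SE 0.21).

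*clec-52* (B0218.8, chromosome IV) showed the tightest libraries of the class. It was at 44.3, 41.6, 38.3 and 41.2 CPM in *hlh-30* on NGM, against 12.22, 10.99, 12.52 and 12.02 CPM in WT on NGM (log2 fold change 1.80, SE 0.08, edgeR adjusted p = 2.90e-06). Over *pgph-2* oe the combined strain was higher on NGM (1.17, SE 0.18) and on glucose, where *clec-52* was at 47.1, 36.5, 43.0 and 45.1 CPM, against 12.7, 9.81, 13.5 and 14.2 CPM in *pgph-2* oe (1.74, SE 0.12). On glucose over WT the difference was 0.97 (SE 0.08), just under the limit of 1, and the WT level of *clec-52* was itself higher on glucose (22.0 to 26.3 CPM) than on NGM (10.99 to 12.52 CPM).

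*clec-174* (Y46C8AL.2, chromosome IV), a low gene, was at 2.25, 2.94, 1.11 and 2.00 CPM in *hlh-30* on NGM, against 0.486, 0.312, 0.399 and 0.228 CPM in WT on NGM (log2 fold change 2.503, SE 0.39). On glucose *clec-174* was at 3.35 to 6.02 CPM in *hlh-30* against 0.312 to 0.572 CPM in WT (3.35, SE 0.28), and at 4.03 to 7.74 CPM in the combined strain against 1.31 to 2.06 CPM in *pgph-2* oe (1.91, SE 0.25). It was the single member whose 8 WT libraries all lay below the other 24. *clec-265* (M02F4.7, chromosome X) was at 97.61, 100.8, 75.18 and 151.2 CPM in *hlh-30* on NGM, against 27.9, 36.9, 61.8 and 61.5 CPM in WT on NGM. The log2 fold changes of *clec-265* were 1.19 (SE 0.28) there, 1.55 (SE 0.16) for the combined strain over *pgph-2* oe on NGM and 1.52 (SE 0.15) over WT on glucose, and the first was lost without WT replicate 2 or *hlh-30* replicate 1, 2 or 4. The calls of *clec-265* over WT ended once the sperm score was in the fit, at 0.94 on NGM, under the limit of 1, and at 0.91 on glucose (edgeR adjusted p = 0.235).

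*clec-247* (Y51A2A.1, chromosome V) was lower. It was at 0.400, 0, 0.422 and 0.0606 CPM in *hlh-30* on NGM (0 to 8 counts), against 2.39, 2.14, 2.83 and 1.88 CPM in WT on NGM, and at 0.534 to 0.885 CPM in *hlh-30* on glucose against 1.92 to 3.55 CPM in WT on glucose (log2 fold change -2.03, SE 0.29, edgeR adjusted p = 0.00156). Between the combined strain (0.848 to 1.46 CPM) and *pgph-2* oe (0.975 to 3.30 CPM) on NGM the libraries of *clec-247* overlapped, and that call (-1.24, SE 0.38) was lost without any 1 of 5 libraries. That call of *clec-247* ended with the sperm score in the fit (-1.18, edgeR adjusted p = 0.0949), as did the one over WT on glucose (-1.89, adjusted p = 0.269). With the transgene in the *hlh-30* background *clec-247* was higher on both media (2.23, SE 0.63, on NGM and 1.65, SE 0.29, on glucose).

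**Figure D3:**
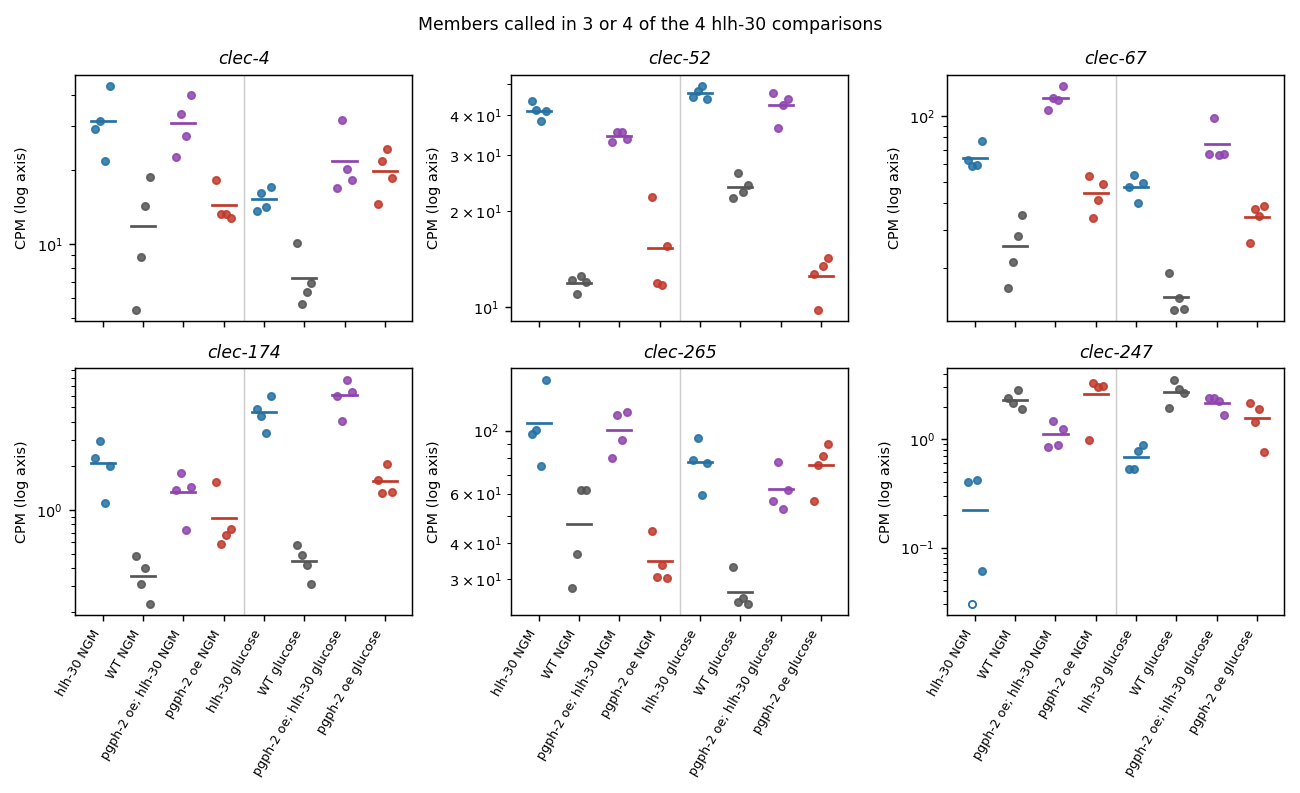
Level of the 6 members that followed *hlh-30* in every library, as CPM on a log axis, with each *hlh-30* group left of its control, NGM left of the grey line and glucose right of it (points are libraries, lines are group means, the open circle is a library at 0 counts). The 4 *hlh-30* libraries of *clec-52* on NGM sit at 38.3 to 44.3 CPM and the 4 WT libraries at 10.99 to 12.52 CPM.

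Glucose moved few members in WT, though a larger share of the members than of all genes. There 6 of 137 tested members (4.38%) were higher on glucose than on NGM, beside 0.596% of all genes. Lower were 4 (2.92%), beside 0.583%. The set high in WT alone, described further on, gave 18 of the 137 tested members and 2 of the 6 higher calls. In *pgph-2* oe 4 (3.36%) were higher, beside 6.65%, and 28 (23.5%) were lower, beside 13.1%, and with the sperm score in a fit of all 32 libraries 3 were higher and 3 lower. In *hlh-30* 7 of 116 were higher, beside 3.54%, and 7 were lower, beside 0.936%, and in the combined strain 4 of 122 were higher, beside 1.2%, and 6 were lower, beside 0.635%. The median log2 fold change of the members was 0.12 in WT (all genes 0.01), -0.38 in *pgph-2* oe (0.01), -0.24 in *hlh-30* (-0.004) and -0.14 in the combined strain (0.01).

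*clec-169* (F38A1.14, chromosome IV, 1261326 to 1264543) was lower on glucose in all 4 genotypes and was the most abundant of the class. In WT it was at 9.20, 9.24, 9.90 and 6.29 CPM on glucose, against 44.8, 54.6, 45.5 and 67.9 CPM on NGM (log2 fold change -2.61, SE 0.17, edgeR adjusted p = 6.85e-05). In *pgph-2* oe *clec-169* was at 10.97, 11.78, 14.14 and 15.35 CPM on glucose, against 161, 126, 126 and 135 CPM on NGM (-3.39, SE 0.14, adjusted p = 1.50e-07), and in *hlh-30* at 14.3 to 17.6 CPM on glucose against 52.4 to 72.7 CPM on NGM (-1.91, SE 0.11). The combined strain had 14.7, 44.4, 10.1 and 11.7 CPM on glucose, against 50.3, 44.9, 49.7 and 57.7 CPM on NGM (-1.34, SE 0.36). All 16 glucose libraries of *clec-169* lay below the NGM libraries of their genotype, but replicate 2 of the combined strain stood close to them.

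*clec-76* (Y46C8AR.1, chromosome IV, 3965246 to 3969025) was at 1.35, 0.404, 0.524 and 0.884 CPM in WT on glucose, against 2.51, 2.67, 3.63 and 8.78 CPM in WT on NGM (log2 fold change -2.46, SE 0.51, edgeR adjusted p = 0.0297). In *pgph-2* oe it was at 0.238 to 0.914 CPM on glucose against 7.82 to 9.37 CPM on NGM (-4.04, SE 0.32), and *clec-76* fell by 3.65 (SE 0.59) in *hlh-30* and by 1.98 (SE 0.55) in the combined strain. *clec-210* (Y73C8C.2, chromosome V, 3118377 to 3120323) was at 3.274, 2.917, 3.72 and 2.497 CPM in WT on glucose, against 7.41, 8.68, 7.74 and 8.43 CPM in WT on NGM (-1.37, SE 0.16, adjusted p = 0.00173). The log2 fold changes of *clec-210* were -1.89 in *pgph-2* oe, -1.78 in *hlh-30* and -1.41 in the combined strain (SE 0.19 to 0.40). This gene overlaps *srt-56* on the opposite strand, and whether the counting used strand is not given in the sources used here.

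Replicate 2 of the combined strain on glucose stood apart for all 3 of these genes, with 6.44 CPM of *clec-76* against 0.410 to 1.28 CPM and 4.20 CPM of *clec-210* against 0.854 to 1.18 CPM in the other 3 libraries. Leaving it out, the log2 fold changes in the combined strain were largest, at -3.25 for *clec-76*, -2.06 for *clec-169* and -2.19 for *clec-210*. Leaving out any other library than this one lost the call of *clec-76* and *clec-210* in the combined strain, and that of *clec-169* was lost without any 1 of 6 libraries. In WT the call of *clec-76* was lost without NGM replicate 3 or 4 or glucose replicate 2, 3 or 4.

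*clec-69* (F56D6.15, chromosome IV, 3929650 to 3931574, a pseudogene in RefSeq) was higher on glucose in all 4 genotypes. It was at 1.40, 0.898, 1.68 and 1.51 CPM in WT on glucose, against 0.162, 0.134, 0.120 and 0.399 CPM in WT on NGM (20 to 32 against 3 to 7 counts). In *pgph-2* oe it was at 1.89, 1.31, 2.62 and 1.72 CPM on glucose, against 0, 0.0972, 0.268 and 0.226 CPM on NGM. The log2 fold changes of *clec-69*, 2.79 in WT, 3.58 in *pgph-2* oe, 3.09 in *hlh-30* and 3.08 in the combined strain (SE 0.44 to 0.70), depend on the prior count because the NGM libraries of the 3 strains other than WT hold 0 to 6 counts.

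Its neighbour *clec-70* (Y46C8AL.3, IV, 3932733 to 3936238), a gene induced by *S. aureus*, was at 24.47, 17.01, 19.34 and 18.99 CPM in WT on glucose, against 1.25, 1.25, 2.15 and 2.17 CPM in WT on NGM (log2 fold change 3.56, SE 0.22, edgeR adjusted p = 4.77e-05). *clec-70* also rose in *hlh-30* (2.76, SE 0.39) and in the combined strain (1.95, SE 0.24). In *pgph-2* oe it was at 7.09, 6.54, 12.8 and 5.57 CPM on glucose, against 5.45, 4.96, 5.44 and 5.83 CPM on NGM (0.57, SE 0.25, adjusted p = 0.1). That response differed from the one in WT (interaction -3.001, SE 0.34, adjusted p = 1.51e-05). *clec-206*, which was lower with the transgene, was higher on glucose in WT (24.5, 27.2, 27.0 and 27.5 CPM on glucose, against 11.49, 10.46, 7.775 and 8.776 CPM on NGM; 1.47, SE 0.13), in *hlh-30* (1.34, SE 0.14) and in the combined strain (1.79, SE 0.19).

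**Figure D4:**
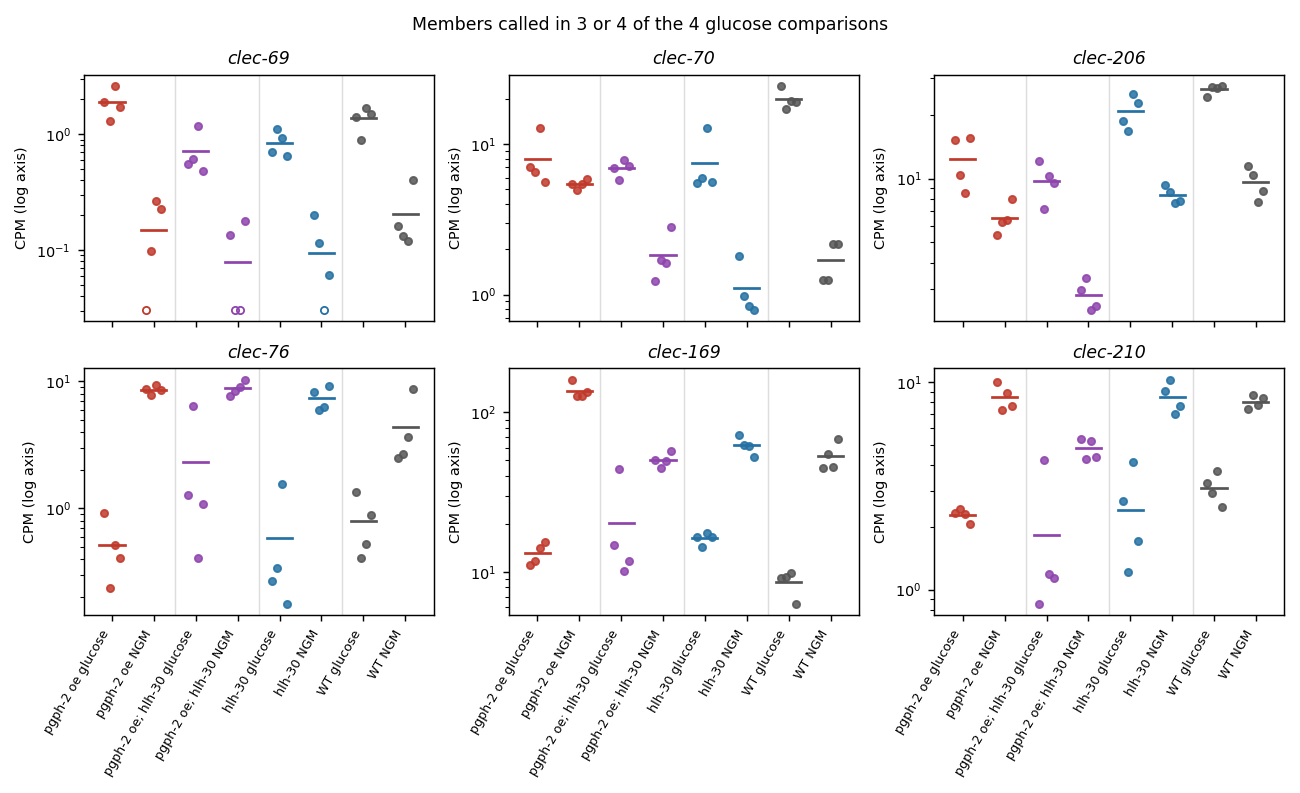
Level of the 6 members that followed glucose in every library, as CPM on a log axis, with glucose left of NGM within each genotype (points are libraries, lines are group means, open circles are libraries at 0 counts). The point of *clec-169* at 44.4 CPM among the glucose libraries of the combined strain is replicate 2.

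The germline class was read from a slope, not from a comparison of groups. In one fit of all 32 libraries with the 8 group means, each gene was given a slope on the sperm score, the mean log2 CPM of the sperm list in a library, so that the slope used differences between libraries of 1 group. A positive slope passed (adjusted p at most 0.05, with no limit on size) for 13 of 160 members (8.12%), beside 14.4% of all genes, and a negative slope for 3 (1.88%), beside 6.49%. Both shares lay under those of all genes. A positive slope also passed for 14 of the 16 oocyte genes and for 3 of the 5 hypodermal genes (*bli-1*, *dpy-7* and *col-19*). A negative one passed for 5 of 16 regulators of immunity, listed further on. Within groups the score thus went with cuticle genes too, and the class is named for the score alone. The 13 were *clec-70*, *clec-73*, *clec-79*, *clec-82*, *clec-87*, *clec-117*, *clec-119*, *clec-123*, *clec-151*, *clec-153*, *clec-175*, *clec-187* and *clec-260*, and the 3 were *clec-221*, *clec-230* and *clec-233*.

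The slopes of 5 of the 13 that reached 5 CPM were near 1, that is, their log2 level moved about as much as the score. They were 1.07 (SE 0.11, edgeR adjusted p = 5.56e-09) for *clec-153*, 0.93 (SE 0.08) for *clec-151*, 0.92 (SE 0.06) for *clec-73*, 0.88 (SE 0.07) for *clec-79* and 0.86 (SE 0.05) for *clec-123*. In *hlh-30* on glucose, where the sperm score ran from 0.21 to 2.97, *clec-73* was at 3.57, 9.13, 21.2 and 2.18 CPM, *clec-123* at 5.14, 7.87, 23.0 and 2.60 CPM and *clec-153* at 0.200, 0.680, 3.20 and 0.295 CPM. Replicate 3 was the highest library for each of these genes, and it was also the library with the highest sperm score of the group. *clec-230* (C29F3.5, chromosome V) went the other way (slope -0.53, SE 0.14, adjusted p = 0.00605), with 10.62, 5.001, 3.302 and 9.141 CPM in the same libraries.

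Between groups these members moved with the sperm list in some comparisons and not in others. Of the 13, 11 were lower and 1 was higher in *pgph-2* oe than in WT on glucose, 10 were lower in *hlh-30* than in WT on glucose, 9 were lower in the combined strain than in *pgph-2* oe on NGM, and 12 were lower on glucose than on NGM in *pgph-2* oe. In the same comparisons 45, 47, 41 and 43 of the 48 tested sperm genes were lower. Of all genes, 13.7%, 14.7%, 10.7% and 13.1% were lower in these, and 5.44% were higher in the first. In *hlh-30* over WT on NGM, however, 28 of 48 sperm genes and 1 of the 13 members were lower, beside 5.74% of all genes. In the combined strain over *pgph-2* oe on glucose 24 of 47 sperm genes and 1 of the 13 members were higher, beside 2.5%. *clec-73* (Y46C8AL.1, chromosome IV) was at 8.914, 11.95, 20.31 and 17.07 CPM in *pgph-2* oe on glucose, against 40.1, 63.2, 43.4 and 57.2 CPM in WT on glucose (log2 fold change -1.81, SE 0.25, edgeR adjusted p = 0.000378). *clec-87* was at 8.91, 9.40, 8.95 and 10.7 CPM in *pgph-2* oe on glucose, against 77.3, 41.4, 44.8 and 55.9 CPM in *pgph-2* oe on NGM (-2.52, SE 0.19). With the sperm score as a term in the fit of all 32 libraries, *clec-73* in *pgph-2* oe over WT on glucose was at 0.37. The part of germline RNA in these calls was not tested, since these members were picked by their slope on that score in the same kind of fit. *clec-151* and *clec-153*, neighbours on chromosome III, both overlap *pfas-1* on the opposite strand.

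Of the 3 members that were in more than 1 class, *clec-70* and *clec-82* rested on the germline slope with 1 other class and *clec-206* on *pgph-2* oe and glucose. The slope of *clec-70* (0.32, SE 0.11) was -0.05 without replicate 3 of all groups, and that of *clec-82* (0.37, SE 0.14, edgeR adjusted p = 0.0492) did not pass without replicate 1, 2 or 3. *clec-230* lost its slope without replicate 3 or 4, and *clec-70* also did not pass without replicate 4. *clec-233* lost its slope with any replicate number left out, *clec-187* and *clec-221* without replicate 2, 3 or 4, and *clec-260* without replicate 3. With DESeq2 size factors, with no filter and with the replicate block *clec-187* did not pass either.

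**Figure D5:**
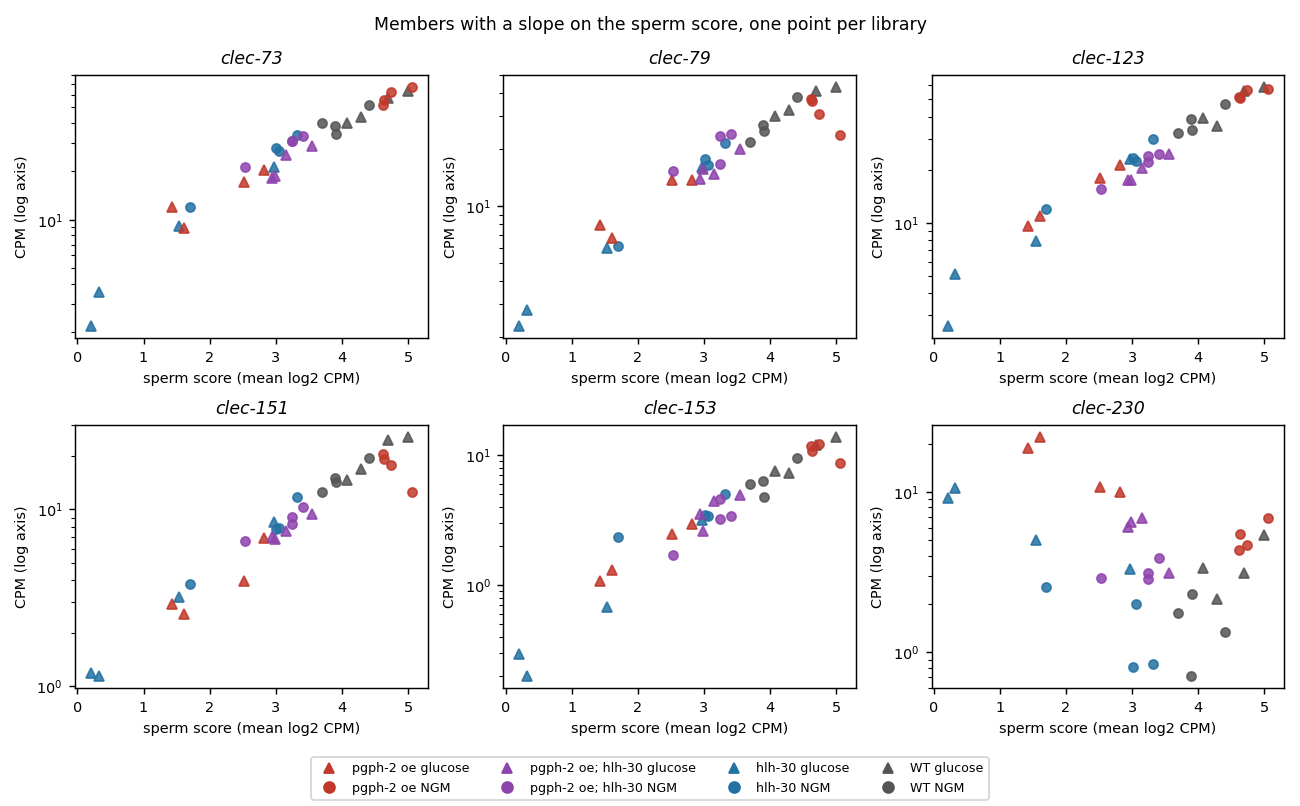
Level of *clec-73*, *clec-79*, *clec-123*, *clec-151*, *clec-153* and *clec-230* (CPM, log axis) against the sperm score (mean log2 CPM of the sperm list) in each of the 32 libraries, coloured by genotype with triangles for glucose and circles for NGM. In the first 5 panels the libraries rise along the score, with the lowest points in *hlh-30* on glucose, while in the panel of *clec-230* the highest points lie at low scores.

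A further set of members was high in WT alone. It was noticed in the data: 20 members had all 8 WT libraries above all 24 libraries of the other 3 genotypes, and 1 (*clec-174*) had them below. How many of all genes show the same pattern was not counted, so it cannot be called particular to lectin genes. The 20 were *clec-92*, *clec-94*, *clec-95*, *clec-99*, *clec-103*, *clec-104*, *clec-108*, *clec-109*, *clec-130*, *clec-133*, *clec-136*, *clec-137*, *clec-138*, *clec-158*, *clec-161*, *clec-183*, *clec-207*, *clec-208*, *clec-219* and *clec-263*, of which 15 had no domain name and 5 had Lectin_C. All were low genes, with WT medians of 0.330 to 5.08 CPM and no more than 1.20 CPM in any other library, and each had some other library at 0.

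*clec-137* was at 0, 0, 0 and 0.0566 CPM in *pgph-2* oe on NGM and at 0, 0.115, 0.264 and 0 CPM in *hlh-30* on NGM, against 4.65, 2.98, 3.43 and 4.27 CPM in WT on NGM. *clec-208* was at 0.516, 0.777, 1.20 and 0.679 CPM in *pgph-2* oe on NGM and at 0.550, 0.691, 0.738 and 0.667 CPM in *hlh-30* on NGM, against 4.21, 4.14, 4.03 and 5.47 CPM in WT on NGM. *clec-136* and *clec-137* overlap *pqn-35* on the opposite strand.

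Because the 20 were picked for lying above all other libraries in WT, and pass the filter on low counts through WT, their lower calls over WT were fixed by that choice and are given as a description. They made up 16 of the 17 lower calls over WT on NGM for *pgph-2* oe and 13 of the 17 for *hlh-30*, and on glucose 15 of 36 and 16 of 37. Without them, 1 and 4 members were lower on NGM and 21 and 21 on glucose. Male-list scores (mean log2 CPM) were also higher in the WT libraries, at -1.01 to -0.32, than in the other 24, at -2.36 to -1.22, but few genes of the list carried this. On NGM *cwp-2* was called lower in both strains over WT and *try-5* in *hlh-30*, on glucose *pkd-2* was called lower in both, and *cwp-4* and *cwp-5* were called in none of these 4 comparisons. The part of male RNA in these calls was not tested, and strain and genotype cannot be told apart for this set.

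Whether the 2 changes combined was tested as interactions. On NGM the effect of *pgph-2* oe in the *hlh-30* background was above that in the WT background for 4 of 141 members, beside 1.22% of all genes, and below it for 6, beside 0.64%. All 4 above were of the WT-high set (*clec-92*, *clec-108*, *clec-136* and *clec-208*), whose reference levels differ by strain. Below it were infection-linked *clec-49* (-1.04, SE 0.19, edgeR adjusted p = 0.00629) and *clec-71* (-1.68, SE 0.36, adjusted p = 0.0151), and also *clec-82*, *clec-87* (-1.62, SE 0.41) and *clec-169* (-1.64, SE 0.19). *clec-49*, whose product binds *Serratia marcescens*, was at 36.8, 23.7, 30.6 and 33.9 CPM in *pgph-2* oe on NGM, against 11.7, 13.4, 12.5 and 13.5 CPM in WT on NGM, and at 23.2, 20.4, 26.8 and 26.4 CPM in the combined strain, against 18.5, 21.0, 24.3 and 18.8 CPM in *hlh-30*.

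On glucose the same interaction was above 0 for 27 of 144 members, beside 14.6% of all genes, and below 0 for 5, beside 5.84%. With *hlh-30* intact, the effect of *pgph-2* oe was higher on glucose than on NGM for 5 of 151 members, beside 6.27%, and lower for 28, beside 14.2%. Of the 13 members with a positive germline slope, 10 were among the 27 and 13 among the 28. The WT-high set, which passes the filter on low counts through WT, gave 7 of the 27 and 3 of the 28. The other 20 and 25 were members outside that set. *clec-61* and *clec-60* were also among the 28 (-2.05, SE 0.42, edgeR adjusted p = 0.00127, and -1.35, SE 0.40, adjusted p = 0.0150). With the sperm score in the fit of all 32 libraries, edgeR called 0 of 160 members in either of these interactions, and 20 and 23 had an unadjusted p under 0.05.

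The 12 members named in work on infected worms, a list set with earlier results of these data known, were described across the same comparisons. Over WT, 7 of 11 tested were higher and 0 lower in *pgph-2* oe on NGM (*clec-17*, *clec-42*, *clec-49*, *clec-60*, *clec-61*, *clec-70* and *clec-71*), and 7 were higher and 1 (*clec-70*) lower on glucose, where *clec-4*, *clec-41* and *clec-67* joined *clec-17*, *clec-42*, *clec-60* and *clec-61*. In the *hlh-30* background *clec-17*, *clec-42*, *clec-60* and *clec-61* were higher on both media and none was lower. The median log2 fold change of the list was 1.29 and 1.43 over WT, and 0.70 and 0.77 in the *hlh-30* background, on NGM and on glucose. In *hlh-30* over WT, 2 were higher and 1 lower on NGM and 3 higher and 1 lower on glucose. In the combined strain over *pgph-2* oe on NGM, 2 (*clec-4* and *clec-67*) were higher and 4 (*clec-60*, *clec-61*, *clec-70* and *clec-71*) lower, and on glucose 2 (*clec-61* and *clec-67*) were called, both higher. The shares of all genes called in these comparisons are those given above, from 0.19% to 14.7%, and nothing is read from the list beyond its counts. *clec-41* was at 162, 187, 221 and 245 CPM in *pgph-2* oe on glucose and at 173, 192, 133 and 190 CPM in *hlh-30* on glucose, against 81.5, 67.8, 81.3 and 71.8 CPM in WT on glucose, which gave log2 fold changes of 1.43 (SE 0.12, edgeR adjusted p = 3.97e-05) and 1.18 (SE 0.12). *clec-39* and *clec-85* were called in none of the 12 pairwise comparisons.

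Regulators of immunity were described in the same way. Among 16 regulators of immunity, all tested, from the p38 module (*tir-1*, *nsy-1*, *sek-1*, *pmk-1*, *vhp-1*, *atf-7*), the TGF-beta and insulin pathways (*dbl-1*, *sma-6*, *sma-3*, *daf-2*, *daf-16*) and the factors *skn-1*, *zip-2*, *bar-1*, *elt-2* and *hlh-30*, edgeR called 0 in the 4 transgene comparisons and 0 in the 4 glucose comparisons. Of the 64 tests in each set of comparisons, 23 and 21 had an unadjusted p under 0.05, and some passed the adjusted p but not the limit on fold change. By adjusted p alone 12 of the 16 passed in *pgph-2* oe over WT on glucose, all 12 upward (median of the list 0.33, with 0.44 for *atf-7*, 0.46 for *vhp-1* and 0.89 for *sma-3*), while 0 passed in the other 3 transgene comparisons, and on glucose over NGM 5 passed in *pgph-2* oe, 2 in the combined strain, 3 in *hlh-30* and 1 in WT. In *hlh-30* over WT on glucose 14 passed, 13 of them upward (median 0.40). The share of all genes that passed the adjusted p alone was not counted, so these counts cannot be set against all genes. With the limit on fold change as well, 5.44% of all genes were higher and 13.7% lower in *pgph-2* oe over WT on glucose. In *hlh-30* over WT on glucose these shares were 5.89% and 14.7%. *sma-3*, which encodes a Smad protein, was higher in *hlh-30* than in WT on NGM (log2 fold change 1.0998, SE 0.20, edgeR adjusted p = 0.00934) and on glucose (1.13, SE 0.11), and in the combined strain than in *pgph-2* oe on NGM (1.19, SE 0.12), where *hlh-30* itself was lower. These are transcript levels and say nothing of the activity of kinases or factors.

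One member was high in *hlh-30* without the transgene. *clec-209* (Y19D10A.9, chromosome V) was at 40.3, 52.5, 8.01 and 32.8 CPM in *hlh-30* on NGM, against 5.71, 0.312, 0.120 and 0.114 CPM in WT on NGM, and the combined strain on NGM had 0.102, 0.437, 0.0488 and 0 CPM. On glucose it was at 1.47, 21.4, 13.3 and 23.6 CPM in *hlh-30*, against 0.364, 0, 0.157 and 0.208 CPM in WT. The *hlh-30* libraries of *clec-209* varied widely, and its calls over WT (edgeR adjusted p = 0.0212 on NGM and 0.00213 on glucose) stand beside a spread of 18.8 CPM (SD, n = 4) around a mean of 33.4 CPM on NGM.

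Some members of a class were neighbours, and some neighbours were in different classes. With a largest gap of 10 kb, 167 members fell into 51 clusters. A run of 13 members on chromosome IV (3922165 to 3975935) held 7 class members: *clec-67* and *clec-174* (higher in *hlh-30*), *clec-69* and *clec-70* (higher on glucose), *clec-76* (lower on glucose), and *clec-73* and *clec-79* (germline). Another run of 13 on chromosome V (16839145 to 16869845) held *clec-28* and *clec-33*, and a run of 5 on chromosome II (10468351 to 10490514) held *clec-60* and *clec-61*, each pair higher with the transgene. Near-identical neighbours can share reads, and how reads mapping to several genes were counted is not given in the sources used here, so values of adjacent members may not be separate. By domain, CUB members made up 4 of the 24 higher calls in *pgph-2* oe over WT on NGM (18 tested) and VWA members 2 (10 tested). Lectin_C members made up 15 (72 tested) and members with no domain name 3 (34 tested). Of the 17 lower calls, 14 were members with no domain name. But 16 of the 17 were of the set high in WT alone, where 15 of 20 have no domain name. The split of the lower calls by domain thus largely restates that set.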

How the data were processed

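Whole-animal RNA was sequenced by the authors as polyA-selected paired-end libraries, aligned with Hisat2 to WBcel235 and counted per gene with featureCounts 1.5.0-p3. The deposited values are raw counts per gene, 4 libraries in each of 8 groups taken from the sample labels. How strand and multi-mapping reads were treated is not given in the sources used here, and 1 *clec* gene is not analysed here.

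Counts were analysed with edgeR 4.0.16 in R 4.3.3 (TMM scaling, filterByExpr at min.count 10 and min.total.count 15, quasi-likelihood test). Each of 12 pairwise comparisons was fitted on its own 8 libraries, 3 interactions on their 16, and a slope on the sperm score on all 32 with 8 group means. Fits ran on all genes, with Benjamini-Hochberg adjustment over all genes tested, and were checked on simulated data. CPM uses TMM-scaled library sizes, and FPKM adds the gene length of the table. SE stands for an approximate standard error, the size of a log2 fold change or slope divided by the square root of its F statistic. The limits of counting error are those of 16750042 to 29794842 counts a library. No 2 libraries of a group agreed within sampling noise (48 pairs, lowest chi-square per degree of freedom 4.50).

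Members named with values were those called in 3 or 4 of the 4 library-disjoint comparisons of a factor, the 3 largest rises and falls among members of at least 5 CPM in each strain over WT, the 5 largest slopes of each sign among members of at least 5 CPM, the 5 highest FPKM values, the infection list and the 3 largest interaction terms. Members, classes and gene lists were chosen with earlier results of these data known. Alternatives were DESeq2 1.42.0, DESeq2 size factors, no filter, the replicate number as a block, 1 fit of all 32 libraries with and without the sperm score, an oocyte score for the slope, and each library left out in turn. A planned motif search of promoters was not run here.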

Additional observations from a re-analysis of the deposited data

Results flagged for a closer look

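Single libraries stood apart from the other 3 of their group in 18 of 268 groups of values examined, by a gap to the nearest library above Dixon's 95% limit, and chance gives about 1 in 20. Replicate 2 of the combined strain *pgph-2* oe; *hlh-30* on glucose gave 5 of these, with 44.4 CPM of *clec-169*, 4.20 CPM of *clec-210*, 6.44 CPM of *clec-76*, 98.2 CPM of *clec-67* and 10.4 CPM of *clec-42*, of which the last was the lowest library and the other 4 the highest. Replicate 3 of *hlh-30* on glucose, the library with the most sperm RNA of its group, was highest for *clec-153* (3.20 CPM), *clec-70* (12.8 CPM) and *clec-76* (1.55 CPM). Replicate 1 of *pgph-2* oe on NGM was apart for *clec-119* (14.3 CPM), *clec-174* (1.55 CPM), *clec-247* (0.975 CPM) and *clec-4* (18.2 CPM). The others were *clec-233* in WT on glucose replicate 3 (2.52 CPM) and in *pgph-2* oe on glucose replicate 4 (0.811 CPM), *clec-260* in WT on NGM replicate 1 (3.97 CPM), *clec-265* in WT on glucose replicate 1 (33.2 CPM), *clec-7* in the combined strain on NGM replicate 2 (12.2 CPM) and *clec-87* in *hlh-30* on NGM replicate 4 (4.00 CPM).

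Effects that differed between backgrounds or media, by edgeR interaction terms, were called for 10 members (*pgph-2* oe by *hlh-30* on NGM), 32 members (the same on glucose) and 33 members (*pgph-2* oe by glucose with *hlh-30* intact). On NGM the largest terms were those of *clec-108* (8.49), *clec-92* (5.99) and *clec-136* (5.18). On glucose they were those of *clec-219* (8.87), *clec-95* (7.998) and *clec-99* (7.17). All 6 belong to the members high in WT alone, and with libraries at 0 in the other strains these terms depend on the prior count and are no measure of size. For *pgph-2* oe by glucose the largest terms were -5.30 for *clec-207*, -3.93 for *clec-87* and -3.71 for *clec-99*. Of these *clec-87* was the abundant one. On NGM *clec-87* was at 41.4 to 77.3 CPM in *pgph-2* oe against 9.08 to 22.1 CPM in WT. On glucose *clec-87* was at 8.91 to 10.7 CPM in *pgph-2* oe against 20.2 to 58.9 CPM in WT. *clec-207* and *clec-99* also belong to the members high in WT alone, with 17 and 11 libraries of the other strains at 0. Their terms depend on the prior count too and are no measure of size.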

How the results depend on the processing

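All 9, 6 and 6 members that followed *pgph-2* oe, *hlh-30* and glucose kept their class under DESeq2, DESeq2 size factors, no filter, the replicate block and a fit of all 32 libraries. With the sperm score in that fit *clec-4*, *clec-247* and *clec-265* left the *hlh-30* class, and the *pgph-2* oe and glucose classes lost no member. Counts of members called moved by over 1.5 times as follows. DESeq2 gave 45 for *hlh-30* over WT on NGM (26 before) and 19 for the interaction on NGM (10). The fit of all 32 libraries gave 40 for *hlh-30* over WT on NGM, 21 for the combined strain over *hlh-30* on glucose (12) and 27 for glucose in *hlh-30* (14). With the sperm score in it the counts were 26 for *pgph-2* oe over WT on glucose (54), 7 for *hlh-30* over WT on glucose (45), 5 for the combined strain over *pgph-2* oe on glucose (10), 6 for glucose in *pgph-2* oe (32), 17 for the interaction on NGM, and by edgeR 0 for the interaction on glucose (32) and 0 for *pgph-2* oe by glucose (33), where 20 and 23 of 160 members had an unadjusted p under 0.05.

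With the sperm score in the fit, members of the germline class and *clec-61* turned in sign. The members of the class were picked for their slope on that score in the same kind of fit. A shift of their group differences was therefore built in, and the values are given as a description. *clec-73* was at 0.47 in the combined strain over *pgph-2* oe on NGM, 0.37 in *pgph-2* oe over WT and 0.0645 in *hlh-30* over WT on glucose, 0.36 for glucose in *pgph-2* oe, -0.36 for the interaction on glucose and 0.55 for *pgph-2* oe by glucose. In the same order *clec-123* was at 0.0613, 0.35, 0.14, 0.34, -0.56 and 0.49. *clec-151* was at 0.45 in the combined strain over *pgph-2* oe on NGM, 0.0362 in *hlh-30* over WT on glucose, 0.23 for glucose in *pgph-2* oe, -0.0221 for the interaction on glucose and 0.33 for *pgph-2* oe by glucose. *clec-79* was at 0.29 and 0.0504 in *pgph-2* oe and *hlh-30* over WT on glucose, 0.66 for glucose in *pgph-2* oe, -0.32 for the interaction on glucose and 0.73 for *pgph-2* oe by glucose. *clec-153* was at 0.14 in *pgph-2* oe over WT on glucose, 0.23 for glucose in *pgph-2* oe and 0.21 for *pgph-2* oe by glucose. The interaction on glucose was -0.0595 for *clec-70*, -0.17 for *clec-61* and 0.0528 for *clec-230*. The slope of *clec-70* ran from -0.0461 (without replicate 3) to 0.388 (without replicate 1). The cause was not tested.

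Correlations between same-numbered libraries ran from -0.32 to 0.42, and in none of the 12 comparisons were all 4 over 0.1, the limit set for pairing, so the numbers were not taken as pairs. The nearest was the combined strain over *hlh-30* on glucose (0.085 to 0.32), where the block gave 16 members called in place of 12. With the replicate block the count for glucose in WT was 5 (10 without it), the members *clec-69* and *clec-76* lost their call there, and no other count moved by over 1.5 times.

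Leaving out single libraries gave 34 to 46 members called for *pgph-2* oe over WT and 11 to 16 for the combined strain over *hlh-30* on NGM, 20 to 32 for *hlh-30* over WT and 30 to 37 for the combined strain over *pgph-2* oe on NGM, 52 to 64 and 3 to 22 for the transgene on glucose, and 44 to 55 and 5 to 11 for *hlh-30* on glucose. For glucose the ranges were 6 to 14 in WT, 30 to 34 in *pgph-2* oe, 8 to 24 in *hlh-30* and 5 to 12 in the combined strain, and for the interactions 7 to 15, 29 to 37 and 25 to 36. The widest range, 3 to 22, had its ends without combined-strain replicate 4 and without *hlh-30* replicate 3, and 7 were called without *hlh-30* replicate 1 or 2 or combined-strain replicate 1 or 3. The count of 5 for the combined strain over *pgph-2* oe came without combined-strain replicate 4, and 6 without combined-strain replicate 2 or *pgph-2* oe replicate 1. For glucose, 6 in WT came without glucose replicate 2 or 4, 24 and 8 in *hlh-30* without glucose replicates 3 and 1 (9 without NGM replicate 2), and 5 in the combined strain without NGM replicate 1 or 3 (6 without glucose replicate 1 or 4). For the sperm slope 16 were called, 9 to 19 with 1 replicate number left out (9 without replicate 3), and the oocyte score also gave 16, of which 10 were shared.

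The 92 members that passed the filter in no fit were too low for a statement at this depth.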
